A study of Mus musculus with 2 samples.

Results

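The genes described here are those of the interferon regulatory factor (IRF) family measured in lipid A-stimulated mouse macrophages: Irf1, Irf2, Irf3, Irf4, Irf5, Irf7, Irf8 and Irf9, with Irf2bp2, which encodes a protein that binds Irf2. They are defined by gene symbol, not by a threshold on a measured value. All 9 symbols were found among the 55536 annotated genes of the tables. The RNA came from the chromatin fraction of bone marrow-derived macrophages, primary cells of the C57BL/6J mouse strain, treated with lipid A at 100 ng/ml for 75 min. Lipid A is the part of bacterial lipopolysaccharide that Toll-like receptor 4 binds, and chromatin RNA is rich in transcripts that are still being made or spliced. Ribosomal RNA was depleted, and the series holds 1 group of 2 libraries labelled biological replicates 1 and 2. The RNA input was 250 ng for replicate 1 but 500 ng for replicate 2, and the labels give a size range of 250 to 400 bases for both. The labels give both libraries the same donor and give no age or sex, so the spread between them may be that of cultures from the same source rather than of animals. No untreated cells were analysed here, so a level below cannot be read as a response to lipid A.

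IRF proteins share a DNA-binding domain that contacts paired GAAA half-sites, the interferon-stimulated response element (ISRE). Irf3, Irf5 and Irf7 lie latent in the cytoplasm and are activated by kinases below pattern recognition receptors, Irf9 joins Stat2 in a complex below the type I interferon receptor, and Irf1 is made on demand after inflammatory or interferon signals. Irf4 and Irf8 are restricted mainly to haematopoietic cells and bind many of their sites with the ETS factor PU.1, while Irf2 competes with Irf1 for the same element.

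Irf1 was by far the most abundant of the 9 genes, at a mean of 254 TPM, and Irf4 and Irf2bp2 were the least, at 2.34 and 3.22 TPM. The other 6 lay between 21.2 and 37.3 TPM. TPM scales a count by transcript length and by the total of the table, so that genes of unlike length can be set side by side. Such a comparison depends on the annotated transcripts and on the quantification. Of the 9 places in the order of levels, 2 were kept in the second quantification. Values are those of the first of 2 quantifications that the authors deposited, which gives expected counts, TPM and FPKM, unless the second is named. Irf7 differed most between the replicates and was the only gene of the 9 to reach a 2-fold difference on depth-scaled counts, at 2.27 (replicate 2 over replicate 1). Irf3 lay at the other end, at 0.604. In 6 of the 9 genes part of the signal fell on transcripts annotated as retaining an intron, and in 5 of these (Irf2, Irf3, Irf7, Irf8 and Irf9) that part was over 50% of the TPM in both replicates. By the second quantification this held for Irf3, Irf7 and Irf9, but not for Irf2 and Irf8. The first quantification placed the 5 genes between percentiles 64.7 (Irf9) and 89.8 (Irf7) of 5233 expressed protein-coding genes annotated with intron retention. The upper quartile of those 5233 genes was 62.5%, so a part over 50% was common among them too.

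The annotated genes held 21453617 estimated counts in replicate 1 and 29638814 in replicate 2, of which protein-coding genes took 47.0% and 66.2%. The 9 IRF genes together held 0.0511% and 0.0974% of these counts. The second quantification assigned more counts to annotated genes, 38860455 in replicate 1 and 49649572 in replicate 2. The quantifications thus differ in how much they counted as well as in how it was divided. Because TPM is a share of everything in a table, a gene with an unchanged place among coding genes has a higher TPM in replicate 2. The median ratio of TPM was 1.73 over 7633 protein-coding genes expressed in both libraries and 2.03 over the 9 IRF genes, and all 9 had the higher TPM in replicate 2. The ratios given below were therefore taken on counts scaled by TMM, which sets the bulk of genes to a common level. Their 95% intervals are exact and cover counting error only, since no molecular identifiers were counted and there is 1 library on each side. On that scale the median of expressed coding genes was a log2 ratio of -0.12. Scaling by the size of the library alone put it at 0.49. RNA input and coding share differ together with the replicate number, and their part in any difference below cannot be told apart from it. In bulk RNA, a smaller number of cells that use a gene and a lower level in each cell also cannot be told apart.

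All 9 genes reached 1 TPM in both replicates, the level taken here as expressed. Among all annotated genes 17.4% did so, and among protein-coding genes 34.7%. By mean level the order was Irf1, Irf3, Irf5, Irf7, Irf8, Irf2, Irf9, Irf2bp2 and Irf4. Only the steps from Irf1 to Irf3 and from Irf9 to Irf2bp2 separated neighbours whose replicate values did not overlap. Of the 15 pairs among the 6 genes from Irf3 to Irf9, 2 had replicate values that did not overlap, Irf3 above Irf2 and Irf3 above Irf9. The rest of the order within this band was not resolved by values that were apart. In the second quantification Irf2, at 28.3 and 68.8 TPM, overlapped Irf3, at 30.8 and 37.7 TPM, and had the higher mean. Irf3 stayed above Irf9 there, whose higher value was 30.1 TPM. By the first quantification Irf7 was in place 6 in replicate 1 and in place 2 in replicate 2, while Irf3 moved from place 2 to place 5. Against 7633 expressed protein-coding genes, with a median of 8.18 TPM, Irf1 stood at percentile 98.8. The band from Irf3 to Irf9 stood between percentiles 74.8 and 85.3, Irf2bp2 at 21.8 and Irf4 at 12.9.

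**Figure D1:**
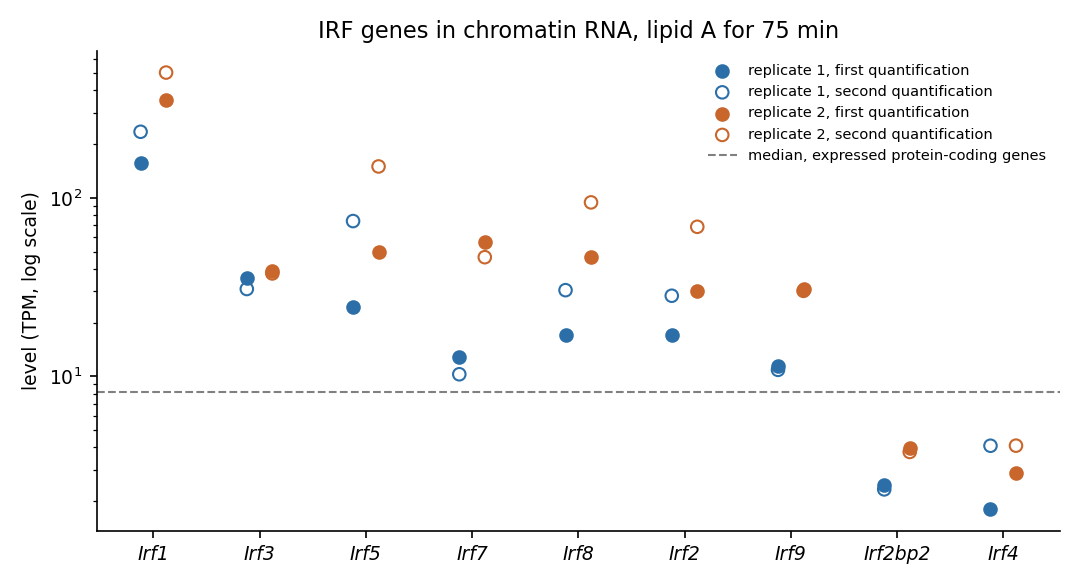
Level of each IRF gene in TPM on a log axis, in replicate 1 (blue) and replicate 2 (orange), by the first quantification (filled) and the second (open), in order of mean level. Irf1 lies above all others at 157 and 351 TPM, 6 genes form a band, and Irf2bp2 and Irf4 lie below the dashed line, the median of expressed protein-coding genes at 8.18 TPM.

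Irf1 (ENSMUSG00000018899.16, chr11:53770014-53778374 on mm10, plus strand) encodes an activator of interferon and antigen presentation genes. It was at 157 TPM in replicate 1 and 351 TPM in replicate 2, or 254 ± 137 TPM (SD, n = 2), from 5289 and 13205 counts. The higher value was in replicate 2, and even the lower one exceeded every replicate value of the other 8 genes. On scaled counts the ratio of replicate 2 to replicate 1 was 1.18 (95% counting interval 1.15 to 1.22). The authors' second quantification, a separate estimate from the same libraries, gave higher levels of 234 and 503 TPM and a scaled ratio of 0.988. The direction of this small difference was thus not stable between the quantifications.

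The 250 bases before the annotated start of Irf1 at chr11:53770014 are shown because they hold the letters of 2 motifs of the pathways that lipid A and interferons set in motion. The sequence is that of RefSeq on GRCm38.p6 (the build called mm10), chr11:53769764-53770013, plus strand, printed with those of Irf2 (chr8:46739495-46739744, plus strand) and Irf8 (chr8:120736108-120736357, plus strand). Capitals mark motif letters, which were searched for on both strands: the ISRE as GAAANNGAAA, the ETS-IRF composite element as GGAANNGAAA, the interferon-gamma activated site (GAS, bound by STAT dimers) as TTCNNNGAA, and the NF-kB site by its usual consensus.
Irf1: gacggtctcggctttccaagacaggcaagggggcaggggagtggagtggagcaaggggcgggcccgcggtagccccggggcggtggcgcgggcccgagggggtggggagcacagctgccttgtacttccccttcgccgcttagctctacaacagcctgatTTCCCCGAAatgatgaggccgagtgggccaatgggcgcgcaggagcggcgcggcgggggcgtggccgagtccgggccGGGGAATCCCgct
Irf2: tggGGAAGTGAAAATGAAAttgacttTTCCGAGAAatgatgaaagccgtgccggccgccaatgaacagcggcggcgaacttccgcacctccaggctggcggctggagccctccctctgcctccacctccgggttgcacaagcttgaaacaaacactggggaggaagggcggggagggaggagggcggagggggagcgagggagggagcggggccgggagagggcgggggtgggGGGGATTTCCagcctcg
Irf8: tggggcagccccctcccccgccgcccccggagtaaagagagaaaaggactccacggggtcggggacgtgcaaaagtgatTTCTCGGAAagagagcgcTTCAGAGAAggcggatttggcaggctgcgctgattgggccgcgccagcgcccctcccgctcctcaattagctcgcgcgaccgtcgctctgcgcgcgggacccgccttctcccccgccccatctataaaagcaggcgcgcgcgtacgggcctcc

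Counted back from the first transcribed base, the printed Irf1 window held a GAS match at -90 to -82 and an NF-kB match at -13 to -4. The Irf2 window held an ETS-IRF match at -247 to -238 and an ISRE match at -241 to -232, which share 4 bases and so print as a single run of capitals. A GAS match at -224 to -216 and an NF-kB match at -17 to -8 followed in the same window. The printed Irf8 window held 2 GAS matches, at -171 to -163 and -153 to -145. Of the 9 genes, 3 held a GAS match (Irf1, Irf2, Irf8), 2 an NF-kB match (Irf1, Irf2), and Irf2 alone an ISRE or an ETS-IRF match. Over 32851 windows in RefSeq of 250 bases before and 50 after a start, the shares were 8.30% for GAS, 4.51% for NF-kB, 3.44% for the ISRE and 2.72% for ETS-IRF. These matches are descriptions of letters, not of binding. The 12 windows of the 9 genes included 1 for Irf7 and 2 for Irf9, which held none of the 4 motifs. Irf1 and Irf8 each have a further window, from RefSeq starts at chr11:53770473 and chr8:120738639, and these also held none. This says only that these letters are not in those windows. The windows are set by RefSeq starts, which can differ from the ends of the gene spans printed here. The upstream bases of both Irf9 windows (chr14:55603735-55603984 and chr14:55604329-55604578) lie inside the span of Irf9. Those of the Irf7 window (chr7:141266425-141266674) partly overlap the span of Irf7. The printed upstream bases of Irf1 were 71.2% G and C, those of Irf2 65.2% and those of Irf8 67.2%. Those of the Irf7 window were 54.4%, against a median of 52.4% over all windows.

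Irf3 (ENSMUSG00000003184.15, chr7:44997648-45002848, plus strand) encodes the constitutively made factor that the kinases Tbk1 and Ikbke phosphorylate to start interferon beta transcription. It was at 35.7 TPM in replicate 1 and 38.8 TPM in replicate 2, or 37.3 ± 2.18 TPM (SD, n = 2), from 750 and 955 counts. Relative to their size, these were the closest pair of TPM values among the 9 genes. Since most genes had a higher TPM in replicate 2, near-equal TPM placed Irf3 below them on scaled counts, at a ratio of 0.604 (95% counting interval 0.548 to 0.666). That ratio stood at percentile 12.1 of expressed protein-coding genes. The second quantification gave 30.8 and 37.7 TPM and a ratio of 0.530.

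Irf7 (ENSMUSG00000025498.15, chr7:141262706-141266481, minus strand) encodes the factor that amplifies interferon alpha and beta production and is itself an interferon-inducible gene. It was at 12.9 TPM in replicate 1 and 56.7 TPM in replicate 2, or 34.8 ± 31.0 TPM (SD, n = 2), from 747 and 3578 counts. Replicate 2 was high, and the SD was nearly as large as the mean. The scaled ratio was 2.27 (95% counting interval 2.10 to 2.46), at percentile 98.2 of expressed protein-coding genes. In the second quantification the levels were 10.3 and 46.5 TPM and the ratio was 1.94, just under the 2-fold mark.

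Irf5 (ENSMUSG00000029771.12, chr6:29526625-29541871, plus strand) encodes the factor that acts with Myd88 downstream of Toll-like receptors on inflammatory cytokine genes. It was at 24.4 TPM in replicate 1 and 49.5 TPM in replicate 2, or 36.9 ± 17.8 TPM (SD, n = 2), from 1391 and 3011 counts. Its scaled ratio of 1.03 (95% counting interval 0.963 to 1.10) included equality. The level itself depended on the quantification more than that of any other of the 9 genes: the second gave 74.1 and 150 TPM, 3.03 times the first on average.

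Irf9 (ENSMUSG00000002325.15, chr14:55603571-55610030, plus strand) encodes the DNA-binding subunit of the interferon-stimulated gene factor ISGF3. It was at 11.5 TPM in replicate 1 and 30.9 TPM in replicate 2, or 21.2 ± 13.7 TPM (SD, n = 2), from 750 and 2104 counts. The scaled ratio was 1.33 (95% counting interval 1.22 to 1.45). The levels of the second quantification, 10.9 and 30.1 TPM, were close to these, with a scaled ratio of 1.14.

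Irf8 (ENSMUSG00000041515.10, chr8:120736358-120756694, plus strand) encodes a lineage factor of monocytes, macrophages and dendritic cells. It was at 17.0 TPM in replicate 1 and 46.4 TPM in replicate 2, or 31.7 ± 20.8 TPM (SD, n = 2), from 1058 and 3864 counts. Replicate 2 was again the higher, with a scaled ratio of 1.73 (95% counting interval 1.62 to 1.86), at percentile 93.8 of expressed coding genes. The second quantification gave 30.4 and 94.2 TPM and a ratio of 1.51. Its close relative Irf4 (ENSMUSG00000021356.10, chr13:30749226-30766976, plus strand), a factor of plasma cells, some dendritic cells and alternatively activated macrophages, was at 1.81 TPM in replicate 1 and 2.86 TPM in replicate 2, or 2.34 ± 0.742 TPM (SD, n = 2). With 197 and 413 counts, its scaled ratio of 0.995 (95% counting interval 0.837 to 1.18) included equality, and the second quantification gave 4.08 and 4.09 TPM and a ratio of 0.726. Irf8 was thus the higher of the 2 lineage factors in each replicate. The lowest value of Irf8 was above the highest of Irf4.

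Irf2 (ENSMUSG00000031627.9, chr8:46739732-46847458, plus strand) is the longest of the 9 genes, at 107727 bases. It was at 16.9 TPM in replicate 1 and 30.1 TPM in replicate 2, or 23.5 ± 9.31 TPM (SD, n = 2), from 418 and 1116 counts, and its scaled ratio was 1.27 (95% counting interval 1.13 to 1.42). The second quantification put it at 28.3 and 68.8 TPM, 2.06 times the first, with a ratio of 1.14. The effective length that the authors' estimate assigned to the gene, a mean over its transcripts weighted by abundance, was 831 bases in replicate 1 and 1163 in replicate 2, so TPM and counts changed by different factors. On TPM rescaled to protein-coding genes the ratio was 0.996, against 1.27 on counts. Irf2bp2 (ENSMUSG00000051495.7, chr8:126588296-126593986, minus strand), whose product works with Irf2 as a corepressor, was at 2.47 TPM in replicate 1 and 3.96 TPM in replicate 2, or 3.22 ± 1.05 TPM (SD, n = 2). Its counts of 355 and 611 gave a scaled ratio of 0.817 (95% counting interval 0.715 to 0.933). The second gave 2.33 and 3.77 TPM and a ratio of 0.698.

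Of the 9 genes, 1 was 2-fold or more higher in replicate 2, Irf7, and 0 were 2-fold or more lower. Among all 14442 genes tested 8.67% were that much higher and 5.59% that much lower, and among expressed protein-coding genes 3.05% were that much higher, so 1 of 9 is not a share that sets the genes apart. No p-value belongs to this comparison of 2 libraries. The median log2 ratio was 0.24 over the 9 genes and -0.12 over expressed protein-coding genes. Of 8 ways of scaling tried, 4 multiply all genes of a library alike and so share the same difference from that median, which leaves 5 separate values for a gene. Over these 5, 8 of the 9 genes kept their side of the median. Irf7 lay 2.28 to 2.62 times above it, Irf8 1.58 to 1.88 times, Irf9 1.33 to 1.60 times, Irf1 1.16 to 1.40 times, Irf5 1.06 to 1.25 times and Irf2 1.03 to 1.37 times. Irf3 lay below it, at 0.622 to 0.681 of the median, and Irf2bp2 at 0.819 to 0.928. Irf4 fell on both sides, from 0.852 to 1.08.

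**Figure D2:**
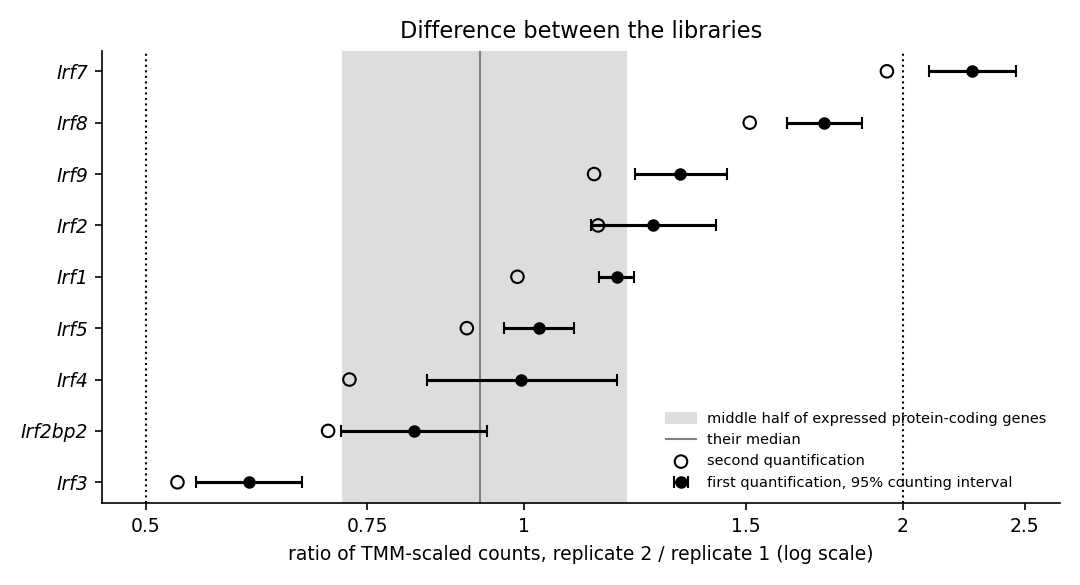
Ratio of TMM-scaled counts, replicate 2 over replicate 1, on a log axis for each IRF gene, with 95% counting intervals (filled) and the second quantification (open). The grey band holds the middle 50% of expressed protein-coding genes and the grey line their median. Irf7 lies beyond the dotted 2-fold line at 2.27 by the first quantification and inside it at 1.94 by the second, and Irf3 lies left of the band at 0.604.

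By the rule of nearest levels over the 2 libraries, the expressed protein-coding genes most like Irf7 were Ccdc82 (13.5 and 57.5 TPM) and March5 (13.4 and 58.2 TPM). Those most like Irf3 were Ptk2b (35.9 and 38.4 TPM) and Nav1 (35.4 and 39.3 TPM). With 2 points for each gene, likeness here means only similar TPM in both libraries.

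The transcript tables divide the RNA of each gene among its annotated transcripts, and for several genes that division depended on the quantification. A retained-intron transcript, in the GENCODE annotation, carries intron sequence that other transcripts of the locus remove. Over 5233 expressed protein-coding genes with such an annotated transcript, its median share of the TPM was 45.9% (quartiles 29.4% and 62.5%). For the 6 IRF genes with such a transcript the median was 65.0%. In the second quantification that median was 46.4%, and no matching value over the 5233 genes is given here. Irf4, Irf5 and Irf2bp2 have none annotated, so for them reads from unspliced RNA have no such transcript to fall on.

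**Figure D3:**
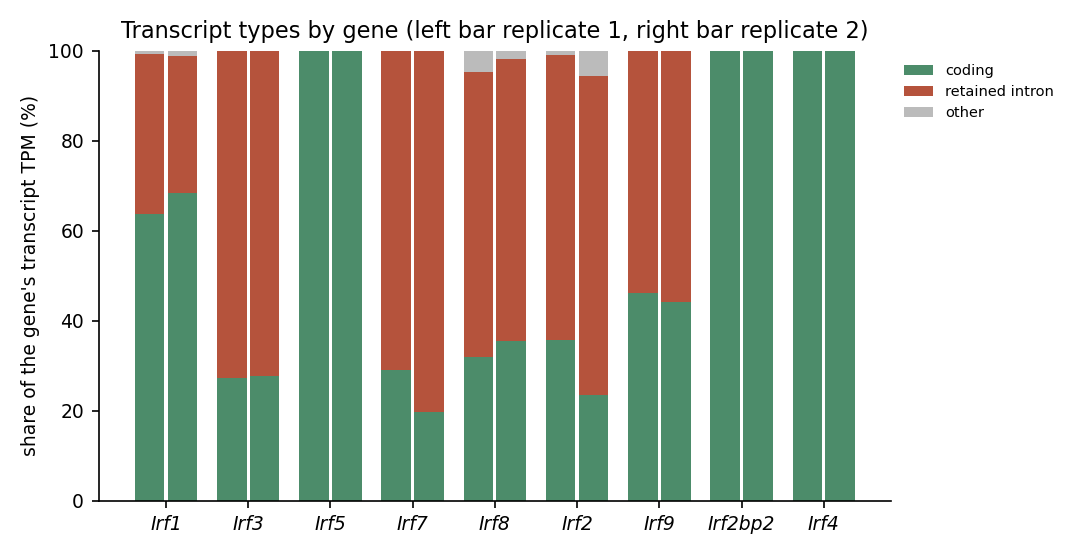
Share of each gene's transcript TPM on protein-coding, retained-intron and other transcripts, left bar replicate 1 and right bar replicate 2. Retained-intron transcripts make up 70.9% and 80.2% of Irf7, 72.8% and 72.2% of Irf3 and 35.7% and 30.6% of Irf1, while Irf5, Irf2bp2 and Irf4 have no annotated transcript of that type.

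Irf7 had the highest share. Retained-intron transcripts held 70.9% of its TPM in replicate 1 and 80.2% in replicate 2, and the second quantification gave 74.0% and 82.3%. Irf7-213, a transcript of 3240 bases, runs unspliced through all 9 introns of the coding transcript Irf7-203. It was at 3.63 TPM in replicate 1, or 28.2% of the gene, and at 23.3 TPM in replicate 2, or 41.1%, and the coding transcripts of Irf7 together were at 3.75 and 11.2 TPM. In replicate 1 the unspliced form and the coding forms were thus near equal, and in replicate 2 the unspliced form was the higher. Irf7-211, which reads into intron 4 and covers 275 of its 291 bases, was at 0.92 and 11.6 TPM. Irf7-210, spliced except for intron 5, was at 3.89 and 8.71 TPM, the highest single transcript of Irf7 in replicate 1. TPM in replicate 2 was 4.99 times that in replicate 1 for the retained-intron transcripts of Irf7 and 2.99 times for its coding ones.

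Short introns kept whole by an annotated transcript are shown for Irf7, Irf3 and Irf9, since reads in these bases are what tells an intron-retaining RNA from a spliced one. They were read from the GENCODE M21 transcript sequences on mm10 and are printed in the transcribed direction, with the splice donor GT and acceptor AG in capitals: Irf7 intron 5 (chr7:141264560-141264724, minus strand, 165 bases, 54.5% G and C), Irf3 intron 5 (chr7:45000547-45000644, plus strand, 98 bases, 65.3%) and Irf9 intron 6 (chr14:55606439-55606536, plus strand, 98 bases, 52.0%).
Irf7 intron 5: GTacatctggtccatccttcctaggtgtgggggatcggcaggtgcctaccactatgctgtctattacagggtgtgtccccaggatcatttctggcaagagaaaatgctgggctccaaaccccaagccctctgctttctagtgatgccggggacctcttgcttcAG
Irf3 intron 5: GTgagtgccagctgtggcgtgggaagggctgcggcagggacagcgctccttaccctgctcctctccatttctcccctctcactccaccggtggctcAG
Irf9 intron 6: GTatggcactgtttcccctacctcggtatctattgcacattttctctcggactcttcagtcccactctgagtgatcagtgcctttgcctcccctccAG

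In Irf3 retained-intron transcripts held 72.8% of the TPM in replicate 1 and 72.2% in replicate 2, with 70.1% and 72.4% in the second quantification. Of expected counts, which weight long transcripts more, they held 60.3% and 55.8%. Intron 5 was kept whole in 3 of them, Irf3-205, Irf3-207 and Irf3-209. Irf3-205 was at 0.31 and 1.75 TPM, Irf3-207 at 3.82 and 2.65 TPM and Irf3-209 at 6.06 and 5.72 TPM. The TPM intervals that came with this quantification overlapped between the replicates for all 3, so no direction is read from them. In the second quantification Irf3-209 was at 3.58 and 3.65 TPM. The most abundant of this type was Irf3-210, at 8.19 and 9.53 TPM, which covers 286 of the 650 bases of intron 6. The coding transcripts of Irf3 together were at 9.72 and 10.8 TPM.

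In Irf9 the share was 53.9% in replicate 1 and 55.7% in replicate 2, and 53.8% and 57.0% in the second quantification. It was split between Irf9-206, which keeps introns 6 to 9 whole and was at 2.87 and 7.66 TPM, and Irf9-204, which covers 475 of the 498 bases of intron 2 and was at 3.32 and 9.56 TPM. Both were higher in replicate 2, as were the coding forms of Irf9, at 5.30 and 13.7 TPM. The makeup of Irf9 therefore differed little between the replicates.

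In Irf8 the share was 63.3% in replicate 1 and 62.5% in replicate 2, yet the transcripts behind it differed between the libraries. Irf8-207, which ends inside intron 2 and covers 3243 of its 3714 bases, was at 6.03 and 24.0 TPM, or 35.5% and 51.6% of the gene. Irf8-202, a fragment over the later exons with 140 bases of intron 3, was at 4.71 and 5.05 TPM, or 27.7% and 10.9%. The main coding transcript Irf8-201 was at 4.32 and 12.5 TPM. In the second quantification Irf8-207 was again the higher in replicate 2, at 4.80 and 20.1 TPM, but retained-intron transcripts made up only 38.2% and 36.5% of the gene, since Irf8-203, a processed transcript, took 9.25 and 29.3 TPM there.

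**Figure D4:**
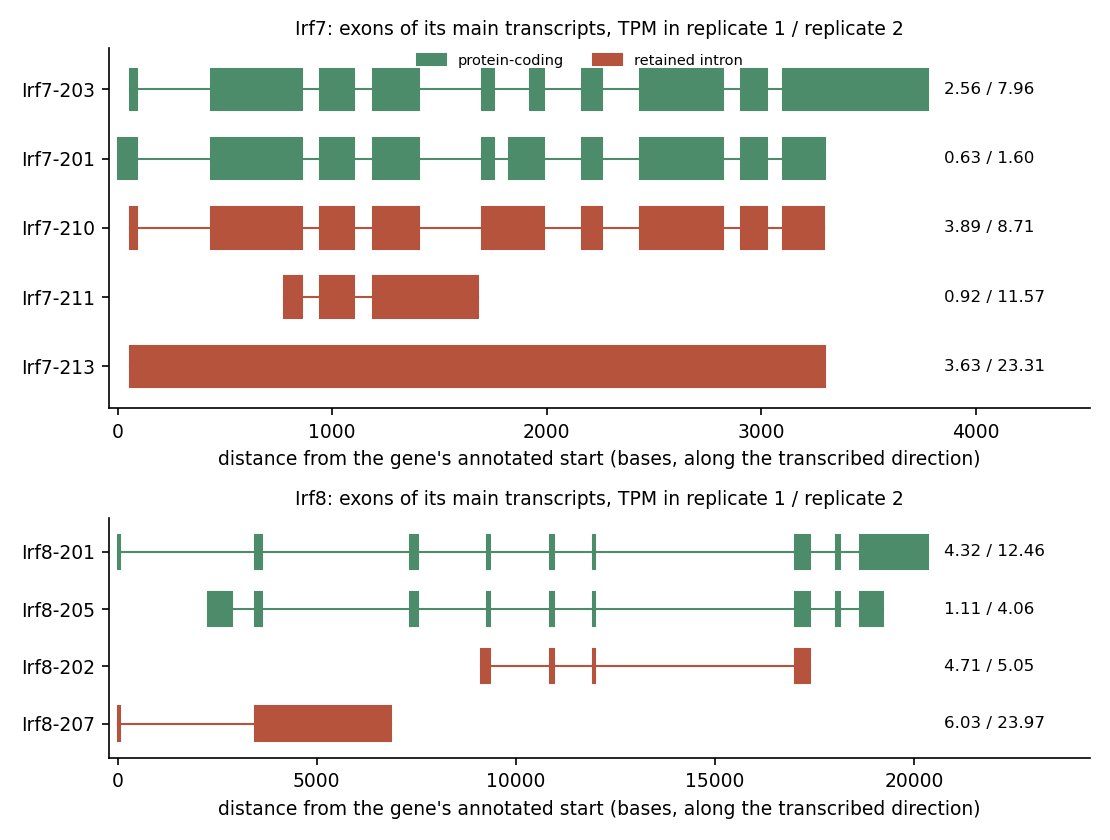
Exons (boxes) and introns (lines) of the main transcripts of Irf7 and Irf8 by distance in bases from the annotated start of the gene, green for protein-coding and red for retained-intron transcripts, with TPM in replicate 1 and replicate 2 at the right. Irf7-213 is a single block through all introns, at 3.63 and 23.31 TPM, and Irf8-207 ends within intron 2, at 6.03 and 23.97 TPM.

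In Irf1 the share was the lowest of the 6, at 35.7% in replicate 1 and 30.6% in replicate 2, and all of it was Irf1-210. It was 19.8% and 18.3% in the second quantification and 17.4% and 14.6% of expected counts. Irf1-210 covers 503 of the 717 bases of intron 3 and was at 56.1 and 107 TPM, so in the first quantification this transcript alone exceeded every other IRF gene in the same replicate. In the second it was at 46.5 and 92.2 TPM, below Irf5 in both replicates and below Irf8 in replicate 2. The coding transcripts of Irf1 were at 100.0 and 240 TPM. How these divided was not stable: Irf1-201 was at 0.58 and 85.0 TPM and Irf1-202 at 58.6 and 55.2 TPM, while the second quantification gave 52.4 and 122 TPM to Irf1-201 and 3.61 and 18.1 TPM to Irf1-202. Irf1-201 and Irf1-202, of 2069 and 2137 bases, share every exon but the first. Their first exons begin 481 and 0 bases from the annotated start of the gene, so the split concerns separate starts. No statement on which of them was used is made from these values.

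Irf2 had a share of 63.3% in replicate 1 and 71.0% in replicate 2, and here the quantifications went opposite ways, with 32.4% and 22.7% in the second. The transcript of this type with the highest TPM in the first was Irf2-211, of 397 bases with only 63 bases of intron 6, at 4.42 and 12.6 TPM. Irf2-207, which covers 3786 of the 11039 bases of intron 5, was at 1.69 and 5.19 TPM in the first and 1.63 and 5.08 TPM in the second quantification. The retained-intron transcripts of Irf2 together were higher in replicate 2 by both, at 10.7 and 21.4 TPM in the first and 9.17 and 15.6 TPM in the second. The coding transcripts of Irf2 differed more between the quantifications, at 6.06 and 7.07 TPM in the first and 18.8 and 51.9 TPM in the second, where the short Irf2-203 took 11.7 and 28.0 TPM against 0 in the first.

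The quantifications also divided Irf5 and Irf4 differently. In the first, nearly all RNA of Irf5 was assigned to Irf5-201, at 20.4 and 35.7 TPM, and Irf5-202, at 3.62 and 12.1 TPM. In the second Irf5-201 was at 10.04 and 15.95 TPM and Irf5-202 at 15.03 and 40.37 TPM. The short coding transcripts Irf5-203, of 350 bases, and Irf5-204, of 402 bases, were at 21.7 and 54.1 TPM and at 23.7 and 35.9 TPM there, against 0 and 0 TPM and 0.40 and 1.52 TPM in the first. Which transcripts of Irf5 were present is thus not settled by these tables. In the first quantification Irf4 was split between Irf4-201 (0.65 and 1.47 TPM) and Irf4-202 (0.81 and 1.39 TPM), near-equal transcripts of 4764 and 4761 bases, with similar values in the second. The short Irf4-203, of 360 bases, was at 0.35 and 0 TPM in the first and 2.49 and 1.30 TPM in the second.

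The retained-intron share was higher in replicate 2 in 60.7% of the 5233 coding genes, with a median difference of 2.13 percentage points (replicate 2 minus replicate 1). It was higher in 3 of the 6 IRF genes. The difference was 9.38 points for Irf7, 7.73 for Irf2 and 1.87 for Irf9, and -5.12 for Irf1, -0.607 for Irf3 and -0.748 for Irf8. That of Irf7 was at percentile 78.6 of those genes, within their common range.

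Several of the loci overlap another annotated gene. The sources used here do not say if counting was by strand, so reads of overlapping genes may have been exchanged. Gm17334, on the opposite strand within Irf1, was at 56.6 and 117 TPM, with 135 of its 907 exon bases on exons of Irf1 and a scaled ratio of 1.07. Its levels were close to those of Irf1-210, whose first bases it overlaps. Within the introns of Irf2 lie 3 opposite-strand genes. Gm45479 had 63 and 307 counts (scaled ratio 2.31, 95% counting interval 1.76 to 3.08) and Gm45481 had 15 and 94 counts (2.97, 1.71 to 5.52). Gm31172 had 1 and 7 counts, a ratio of 3.32 with a counting interval from 0.427 to 150 that says nothing of a difference. None of the 3 touches an exon of Irf2.

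The other overlaps are at gene ends. Phrf1 overlaps Irf7 by 45 exon bases, was at 27.7 and 47.2 TPM and had a scaled ratio of 0.789, so it did not share the difference of Irf7. Rnf31, upstream of Irf9 on the same strand, overlaps it by 123 exon bases and had a ratio of 0.852. Tnpo3 shares 411 exon bases with Irf5 and had 1842 and 4133 counts, Bcl2l12 shares 88 with Irf3 and had 7 and 21 counts, and Gm20388, whose annotated span includes Irf8, shares none and was at 1.45 and 1.93 TPM. Gm26759 is antisense to Irf2bp2 with 1039 of its 1251 exon bases on it. Its estimated counts were fractional, 31.9 and 7.51, so reads had been divided between the pair, and Irf2bp2 carries that uncertainty. The nearest coding gene outside the locus was quiet beside Irf7 (Rassf7 and Cdhr5, both under 0.1 TPM), while Scaf1, 100 bases after Irf3, was at 17.7 and 21.6 TPM with a scaled ratio of 0.640, close to the 0.604 of Irf3. Rassf7, Cdhr5 and Scaf1 were named after their values were seen.

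Other genes of the pathway were read from 6 lists. Of the genes that act above the IRFs, 18 of 19 symbols matched and all 18 were expressed. The highest were Ikbke (602 and 684 TPM), a kinase of Irf3 and Irf7, Ifih1 (180 and 1024 TPM), a sensor of double-stranded RNA, and Tank (84.8 and 250 TPM), an adaptor of those kinases. Irf3 itself was thus below the transcripts of both its kinases, since Tbk1 was at 85.8 and 130 TPM. Of these 18 genes 1 was 2-fold or more higher in replicate 2, Ifih1 at a scaled ratio of 2.89 (95% counting interval 2.84 to 2.94), and 0 were lower. That is 1 of 18 beside 8.67% of all genes tested, near the background.

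Of 18 partner factors 16 were expressed, with Nfkb1 (331 and 619 TPM) and Stat2 (77.5 and 184 TPM), a partner of Irf9, the highest. Of 17 tested, 1 was 2-fold or more higher, Batf2 at a ratio of 3.11 on 23 and 151 counts, and 1 lower, Batf3 at 0.447 on 35 and 33 counts, beside 8.67% and 5.59% of all genes, which is near the background each way. Batf2, Batf3, Tbk1 and Spi1 were likewise chosen after their values were seen. Spi1, which encodes the PU.1 partner of Irf4 and Irf8, was at 18.1 and 19.4 TPM with a ratio of 0.591, near that of Irf3. Of 12 genes of the interferon receptors and their signalling chain all were expressed, led by Jak2 (83.0 and 181 TPM), Socs3 (76.3 and 179 TPM) and Ifnar1 (44.1 and 89.1 TPM), and 1 was 2-fold or more higher, Usp18, a brake on the interferon receptor, at 2.83 on 120 and 717 counts, again 1 of 12 beside 8.67% of all genes. Of 14 negative regulators of IRF activity 13 were expressed, led by Tnfaip3 (396 and 897 TPM), Trim30a (42.6 and 124 TPM) and Lyn (40.3 and 95.5 TPM), and 0 reached 2-fold in either direction.

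The list of interferon and IRF target genes differed from these. Of 26 genes 23 were expressed, the highest being Rsad2 (179 and 1226 TPM), Gbp5 (203 and 629 TPM) and Ccl5 (171 and 549 TPM). Of 24 tested, 14 were 2-fold or more higher in replicate 2 and 0 lower, beside 8.67% and 5.59% of all genes, with a median log2 ratio of 1.45. Among the IRF genes only Irf7 was beyond 2-fold, and its log2 ratio of 1.18 was under that median. Usp18 is in this list and in the receptor list. Of relatives of Irf2bp2, Irf2bpl was at 1.01 and 1.65 TPM and Irf2bp1 at 0.42 and 0.63 TPM.

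**Figure D5:**
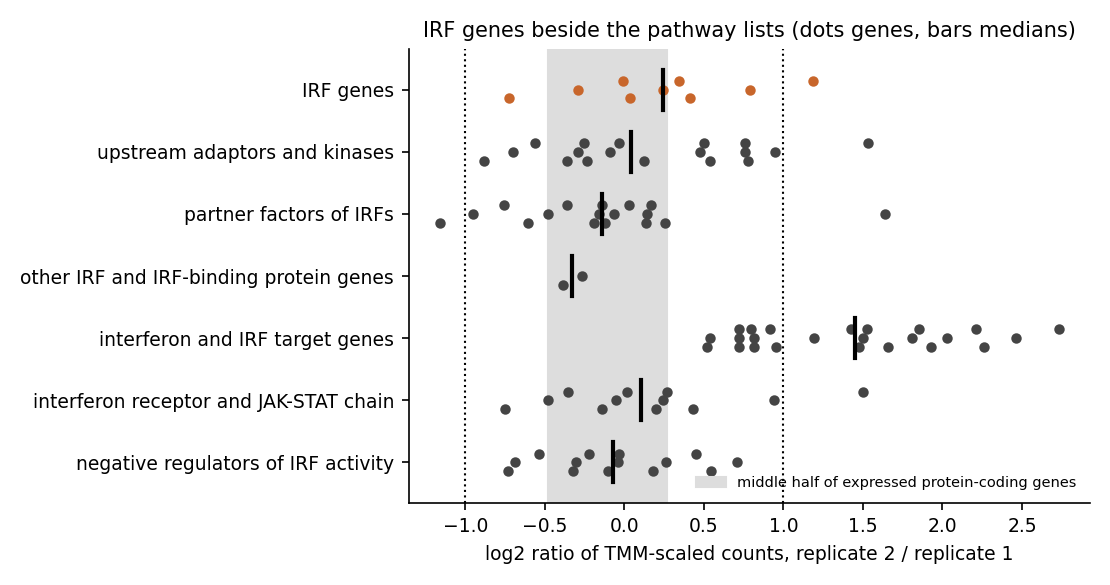
Log2 ratio of TMM-scaled counts, replicate 2 over replicate 1, for the IRF genes (orange) and the tested genes of 6 pathway lists (dots), with the median of each as a bar, the middle 50% of expressed protein-coding genes as a grey band, and dotted lines at 2-fold. The median of the target genes is 1.45 and that of the IRF genes 0.24.

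Since Irf4 and Irf8 also mark dendritic and lymphoid cells, the labelled cell type was checked against marker lists. Of 9 macrophage markers 8 were expressed, with a summed level of 308 TPM in replicate 1 and 491 TPM in replicate 2, and Fcgr1 at 0.93 and 2.09 TPM missed the limit. Of 8 dendritic cell markers 2 were expressed, Tcf4 (60.1 and 156 TPM) and Batf3 (2.52 and 1.73 TPM). Zbtb46, at 0.80 and 1.45 TPM, missed the limit. Cd209a was at 0, and Flt3, Clec9a, Siglech and Xcr1 were under 1 TPM in both. The summed dendritic level was 64.0 and 160 TPM, nearly all of it Tcf4. B and plasma cell markers (0 of 7 expressed) summed to 0.49 and 0.77 TPM with Pax5 at 0, T and NK cell markers (0 of 6) to 1.53 and 0.68 TPM with Cd3e, Cd8a and Klrb1c at 0, and neutrophil markers (0 of 5) to 0.52 and 0.24 TPM. The second quantification gave higher values for the other lists: 5.42 and 9.03 TPM for the summed B and plasma cell markers and 15.6 and 33.2 TPM for the T and NK cell markers, of which Cd3d alone was at 13.0 and 28.8 TPM. There Ebf1 was at 1.98 and 3.004 TPM and Ms4a1 at 1.03 and 1.87 TPM, beside 4.08 and 4.09 TPM for Irf4. Summed macrophage markers were at 398 and 685 TPM there and dendritic markers at 95.3 and 333 TPM. Of the dendritic markers 3 reached 1 TPM in both replicates there: Tcf4, Batf3 and Zbtb46, the last at 1.81 and 4.11 TPM. Xcr1 was at 0.649 and 2.37 TPM, and Flt3, Clec9a, Siglech and Cd209a stayed under 1 TPM. The part of other cells in the levels of Irf4 and Irf8 was not tested.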

How the data were processed

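Both libraries of the group were used, and their tables differed (chi-square of rounded counts 489 per degree of freedom). The authors deposited, per gene and per transcript, expected counts, TPM and FPKM on mm10 with GENCODE M21, per the deposited text, and a second transcript table of estimated counts and TPM. The columns are those that RSEM and kallisto write. The aligner, the quantifier, their versions and the strand setting: not given in the sources used here. From these, expected counts were rounded and scaled by TMM (edgeR 4.0.16, R 4.3.3) over genes with 20 or more counts in sum. A ratio was called at 2-fold, with exact Clopper-Pearson 95% intervals and no test, since there is 1 library on each side. Annotated counts were 21453617 and 29638814, so 3 counts, the limit that a count of 0 allows, were 0.140 and 0.101 CPM. A further 26345 rows that name no annotated gene, with 0.409% and 0.277% of counts, were left out. The ratio script was tested on simulated data. FPKM served only to check the order of levels. Alternatives were DESeq2 1.42.0 size factors, library size, no count filter, TPM ratios, the second quantification and each replicate alone. Promoters came from RefSeq. All IRF genes were named, and in each list the 3 highest genes plus, in lists of 15 or fewer, those at 2-fold, the 2 nearest genes of the extreme ratios, and all overlapping genes. The genes and lists were chosen with earlier results of these data known. Protein sequences were not analysed here, and not every gene of the lists is reported.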

Additional observations from a re-analysis of the deposited data

How the results depend on the processing

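Irf7 stayed 2-fold or more higher under every scaling of the first quantification and fell to a log2 ratio of 0.96 in the second. The number of IRF genes 2-fold or more higher, 1, became 0 in the second quantification, 2 at a fold of 1.5, 3 with library size only, and 4 or 5 with TPM ratios at a pseudocount of 1 or 0.1, scales on which the median coding gene also lay higher. The number 2-fold or more lower, 0, became 1 at a fold of 1.5, Irf3. All 9 genes stayed expressed except at a limit of 5 TPM, which left 7. The median level of 31.7 TPM became 154 when TPM was taken over protein-coding genes only, 34.3 in the second quantification, and 16.9 to 38.8 with either replicate alone. Of the 9 places in the order, 2 were kept in the second quantification and 4 to 6 with either replicate alone. The median retained-intron share, 65.0%, was 60.6% by expected counts, 46.4% in the second quantification and 63.3% to 66.8% with either replicate alone. The motif counts did not change without the 50 bases after the start. Of 196 alternative values 88 moved, and Irf7, the only called gene, did not reverse. Moved means past 1 SD of the replicates for levels and shares or past the counting interval for ratios. For counts it means past a factor of 1.5, or a change to or from 0. With 2 replicates, either alone always lies within 1 SD of their mean. For a single level or share those alternatives therefore could not move, and they say nothing of stability. Uncalled ratios did change sign: Irf3 from -0.73 to 0.12 (log2) on TPM, Irf2bp2 from -0.29 to 0.32 by library size. The ratio on TPM over protein-coding genes was added after seeing the data. No paired analysis was possible because the series has 1 group. With 2 libraries no test was made; low depth limits Irf4 and Irf2bp2 most, and the split among overlapping transcripts depends on the quantification.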
